A study of Mus musculus with 6 samples.

Results

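The 34 genes described here, in mouse apoptotic osteoblasts, encode constitutive subunits of the 26S proteasome and 3 assembly chaperones of its cap. All 34 are counted below as subunit genes. They were chosen by name, as the 7 alpha subunits of the 20S core (Psma1 to Psma7), its 7 constitutive beta subunits (Psmb1 to Psmb7), the 6 ATPases of the 19S cap (Psmc1 to Psmc6) and its 14 non-ATPase subunits and assembly chaperones (Psmd1 to Psmd14). All 34 had a row among the 29587 gene rows of the deposited table, and the rule used names, not measured values. The series asks what changes with age in dying osteoblasts, and it holds 3 libraries from young mice and 3 from old mice. In both groups bone pieces were cultured, the adherent cells were passaged 3 times and taken as bone marrow mesenchymal stem cells, osteogenic medium was given for 3 days, and the cells were killed with ultraviolet light for 0.5 h, after which over 90% took up Trypan Blue. The labels give the genotype as none and age only as young or old, so strain, sex and age in months are not known from them. Every library therefore came from passaged, in vitro differentiated and irradiated cells, and living osteoblasts were not measured. Whether libraries with the same label stem from different mice or cultures is not stated, so the p-values measure only the spread between libraries, which may be technical.

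The proteasome degrades proteins that carry ubiquitin chains. The 20S core is a barrel whose outer alpha rings gate the entry and whose inner beta rings hold the proteolytic sites, on Psmb5 (chymotrypsin-like), Psmb6 (caspase-like) and Psmb7 (trypsin-like). The 19S cap binds the ubiquitin chain, removes it, and unfolds the substrate with a ring of ATPases. When proteasome activity is short, the transcription factor Nfe2l1 (NRF1) is known to raise subunit genes together, and interferon is known to replace the 3 catalytic subunits by Psmb8, Psmb9 and Psmb10, the immunoproteasome. In osteoblasts the ubiquitin-proteasome system is known for degrading the differentiation factor Runx2.

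Subunit genes are known to be controlled together through their promoters, so the stretch from 250 bases before to 50 bases after the transcription start was read from RefSeq on GRCm38.p6 (the mm10 build). It was found for 28 of the 34 genes. Windows for Psmb1, Psmb2, Psmb7, Psmc3, Psmd3 and Psmd7 were not analysed here. The sequences shown are those of Psmb5 and Psmb6, a pair of catalytic subunits that carry the antioxidant response core TGACNNNGC to which Nfe2l1 is known to bind, of Psma3, the 20S gene with the widest spread between young libraries, and of Psmd2, a 19S gene in which young replicate 1 was low where in Psma3 it was high. They run 5′ to 3′ on the strand of the gene, in lower case, with matches to TGACNNNGC or CCAAT on either strand in capitals. Psmb5 lies at chr14:54617946-54618245 (minus strand), Psmb6 at chr11:70525107-70525406 (plus), Psma3 at chr12:70974373-70974672 (plus) and Psmd2 at chr16:20651402-20651701 (plus).
Psmb5: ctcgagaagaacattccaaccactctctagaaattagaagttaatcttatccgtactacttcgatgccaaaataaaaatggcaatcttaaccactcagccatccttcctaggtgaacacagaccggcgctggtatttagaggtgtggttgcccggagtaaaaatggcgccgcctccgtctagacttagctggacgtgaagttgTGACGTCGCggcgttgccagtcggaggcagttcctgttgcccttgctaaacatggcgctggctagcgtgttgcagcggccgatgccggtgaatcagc
Psmb6: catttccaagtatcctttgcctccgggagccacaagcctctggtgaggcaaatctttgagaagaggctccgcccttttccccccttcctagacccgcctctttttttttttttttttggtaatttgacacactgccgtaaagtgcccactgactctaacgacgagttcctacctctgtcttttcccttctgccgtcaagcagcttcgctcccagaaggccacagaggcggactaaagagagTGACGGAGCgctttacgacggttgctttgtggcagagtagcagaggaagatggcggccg
Psma3: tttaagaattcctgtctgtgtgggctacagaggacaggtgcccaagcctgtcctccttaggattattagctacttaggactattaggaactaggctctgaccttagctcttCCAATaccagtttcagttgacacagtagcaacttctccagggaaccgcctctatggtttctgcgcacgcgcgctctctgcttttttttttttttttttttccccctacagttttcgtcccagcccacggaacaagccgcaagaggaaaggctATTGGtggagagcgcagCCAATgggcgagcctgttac
Psmd2: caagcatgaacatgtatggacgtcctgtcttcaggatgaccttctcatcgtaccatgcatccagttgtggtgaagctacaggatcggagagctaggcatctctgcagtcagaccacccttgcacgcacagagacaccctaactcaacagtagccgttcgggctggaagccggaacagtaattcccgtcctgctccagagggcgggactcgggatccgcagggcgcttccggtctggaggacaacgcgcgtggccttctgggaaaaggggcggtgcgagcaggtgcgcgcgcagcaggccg
In Psmb5 the match reads TGACGTCGC and begins 47 bases before the start, and in Psmb6 it reads TGACGGAGC and begins 9 bases before it. Psma3 holds 3 CCAAT matches and no TGACNNNGC, and Psmd2 holds neither. Over the 28 genes with a window, TGACNNNGC was present in 5 (17.9%), namely Psmb5, Psmb6, Psmc6, Psmd9 and Psmd12, against 14.0% of 27025 genes with a window of this length. CCAAT was present in 11 of 28 (39.3%), against 41.1% of those genes. A match is a description of letters, not a bound site, and both shares lay near those of all genes. CCAAT stood in 6 of 11 windows of 20S genes and 5 of 17 of 19S genes.

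All 34 genes were well expressed in every library, with RPKM (read number per gene length and library total) between 4.72 and 488 and between 1092 and 71552 recovered reads per gene and library. The levels per length had a median over genes of 55.9 RPKM. Psmd9, an assembly chaperone of the cap, was lowest at a mean of 5.14 RPKM over the 6 libraries, and Psmd7, the cap subunit that pairs with the deubiquitinase Psmd14, was highest at 362 RPKM. Psmc1 and Psmc3, ATPases of the cap, and Psma4 of the core followed. The deposited gene lengths were 0.324 to 3.00 times those of the longest coding transcript in GENCODE vM21 (median 1.57), so an order of levels between genes depends on the length used. Comparisons of one gene between libraries do not depend on it.

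Depth was 64881180 to 84535939 recovered reads, and 11242 to 12074 genes reached 1 RPKM. Across all genes young replicate 1 stood apart: its log2 values correlated at 0.949 and 0.962 with young replicates 2 and 3, which correlated at 0.996 with each other, and the old libraries at 0.995 to 0.997. Mitochondrial reads made up 1.05% of that library, 2.13 and 2.29% of the other young ones and 1.62 to 1.89% of the old ones, and their part in the results was not tested. Median log2 values of genes in young replicate 1 relative to young replicates 2 and 3 went from 0.15 in the shortest of 5 classes of gene length to -0.45 in the longest. Of 10 listed osteoblast markers 8 passed the filter, while Alpl and Bglap stayed under 1 RPKM. All 10 summed to 3106 to 4255 RPKM in young and 4028 to 4107 in old, mostly Col1a1, Col1a2, Sparc and Spp1. Runx2 read 3.67 to 5.66 RPKM and Dmp1 1.004 to 2.46 RPKM over the libraries. Of the 8 that passed, limma called Sp7 lower in old (7.89 to 9.02 RPKM in young, 4.88 to 4.93 in old) and Spp1 higher (233 to 376 and 691 to 811 RPKM). Endothelial markers summed to 0.111 to 0.152 RPKM in young and 0.117 to 0.139 in old, with all 6 under 0.1 RPKM in every library. Macrophage markers summed to 8.26 to 9.53 and 9.21 to 10.5 RPKM in young and old, mostly Lyz2, with Ptprc, Adgre1 and Itgam under 0.1 RPKM in every library. Osteoclast markers summed to 28.9 to 36.5 and 26.99 to 28.9 RPKM, nearly all of it Ctsk, with the other 4 under 0.1 RPKM. The 5 adipocyte markers with a row were under 0.1 RPKM. Chondrocyte markers summed to 34.4 to 73.3 RPKM in young and 53.2 to 56.8 in old: Col2a1 read 21.5 RPKM in young replicate 1, 47.1 and 53.5 in the other young libraries and 37.7 to 39.5 in old, and Sox9 12.7, 19.7, 19.4 and 15.3 to 17.1. Of these other lists, 1 macrophage, 1 osteoclast, 2 chondrocyte, 0 endothelial and 0 adipocyte genes were tested. None was called, against 1.57% of all genes, and so few genes cannot show whether cell make-up differed. The part of such cells in the results was not tested. In these bulk libraries fewer cells of a type and less RNA per cell cannot be told apart. The main counts of subunits are given with and without young replicate 1.

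**Figure D1:**
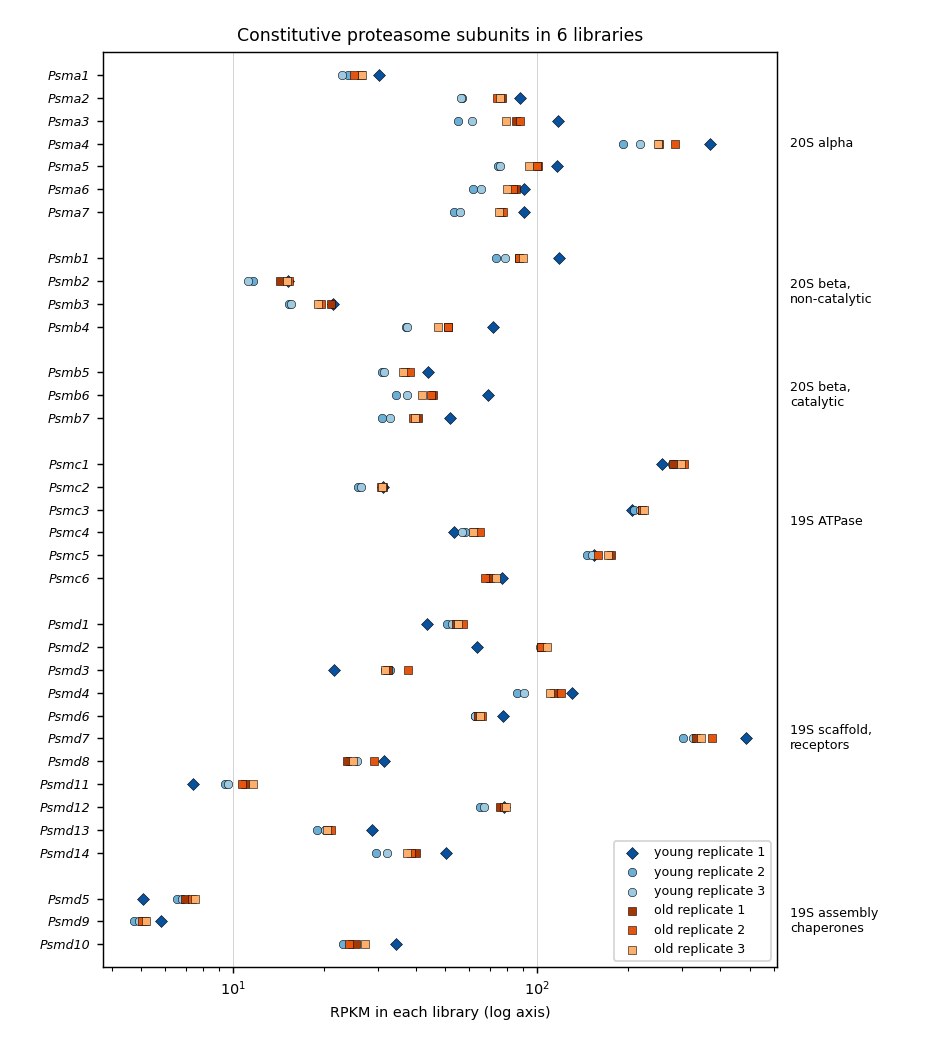
RPKM (log axis) of each of the 34 subunit genes in the 6 libraries, grouped by role. Points are single libraries, coloured by group and with young replicate 1 marked apart; in the 20S genes other than Psmb2 that library lies above all others, and the old libraries lie above young replicates 2 and 3.

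With all 6 libraries, no subunit gene passed the test between old and young. Limma called 0 of 34 at an adjusted p under 0.05, where it called 1.57% of the 12015 genes tested (177 higher in old, 1.47%, and 12 lower, 0.0999%). The 34 adjusted p-values ran from 0.397 to 1.00, and 1 gene, Psmd11, had an unadjusted p under 0.05, against 11.2% of all genes. Ratios of mean RPKM in old to young lay between 0.915 and 1.26. The log2 fold changes on the log2(RPKM + 1) scale had a median of 0.13, against 0.01 over all tested genes, and 26 of 34 were above 0. All 3 old libraries were above all 3 young in 6 genes (17.6%), against 10.6% of all genes, and below them in 0, against 10.2%. Those 6 were Psmc3, Psmc4, Psmc5, Psmd1, Psmd5 and Psmd11, all of the 19S cap.

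Young replicate 1 lay far from the other young libraries, more so in core than in cap genes. In the 14 genes of the 20S core that library read a median of 1.56 times the mean of young replicates 2 and 3, in the 20 genes of the cap 1.14 times, and over all genes 0.876 times. It was above the 5 other libraries in 23 subunit genes (67.6%), against 28.8% of all genes, and these were 13 of the 14 core genes and 10 of the 20 cap genes. It was below them in 8 (23.5%), against 48.2% of all genes, and all 8 were cap genes. The 3 between were Psmb2, Psmc5 and Psmd12. Young replicates 2 and 3 differed by under 10% in 32 of the 34. Without young replicate 1, limma called 18 of 34 subunit genes higher in old (52.9%) and 0 lower, against 13.2% and 19.4% of all genes tested (32.6% in either direction). All 34 fold changes were then above 0, with a median of 0.21, against -0.05 for all genes, of which 4878 of 12015 were above 0. The count was 21 (16.4% of all genes) with median-ratio scaling added and 16 (13.3%) with quantile normalization added. It was 21 (17.6%) when the libraries were weighted by their fit. That fit gave young replicate 1 a weight of 0.0425, against 0.819 to 4.12 for the others, so it nearly left that library out. Of the 34 estimates 29 were above 0 with quantile normalization added and 33 with the weights. Each library was left out in turn, and young replicate 1 was singled out for its values. Leaving it out raises, by construction, the estimates of the 23 genes in which it was highest. The calls without it therefore give no independent support for a direction. Without young replicate 2 or 3 limma called 0 of 34, with 18 and 21 estimates above 0, of which 6 and 8 were core genes. The cause of the shift in young replicate 1 was not tested.

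**Figure D2:**
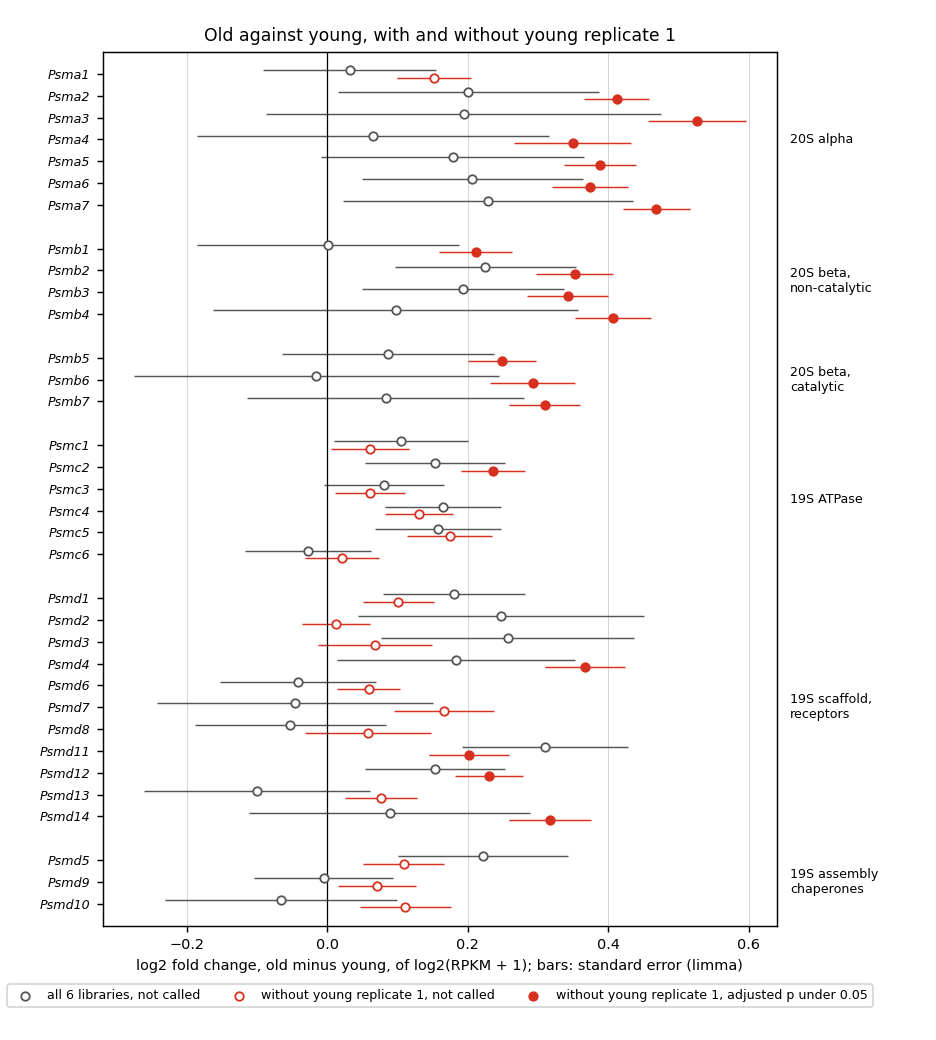
Log2 fold change, old minus young, of log2(RPKM + 1) for each subunit gene, with all 6 libraries (grey) and without young replicate 1 (red); bars are limma's standard errors and filled points have an adjusted p under 0.05. No grey point is filled, and 13 of 14 core points and 5 of 20 cap points are filled in red.

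The alpha ring, which builds the outer gate of the core, showed one pattern in all 7 genes: young replicate 1 was highest, the 3 old libraries lay in the middle, and young replicates 2 and 3 were lowest. Psma3, whose gene body lies on chromosome 12 from 70974621 to 70996347, read 117, 55.0 and 61.4 RPKM in young replicates 1, 2 and 3 and 85.2, 88.2 and 79.4 RPKM in old replicates 1, 2 and 3. The old libraries thus fell inside the young range. Its fold change was 0.19 ± 0.28 (log2, SE) with limma's adjusted p = 0.951, and 0.53 ± 0.07 with adjusted p = 0.00426 without young replicate 1. Psma7, the alpha subunit of smallest p without that library, read 90.7, 53.5 and 55.9 RPKM in young and 76.0, 77.3 and 74.9 RPKM in old. The old libraries lay close together and the young ones wide apart. Limma gave 0.23 ± 0.21 (adjusted p = 0.859) with all libraries and 0.47 ± 0.05 (adjusted p = 0.00152) without young replicate 1. Psma4, the most abundant core subunit per length, read 371, 192 and 218 RPKM in young and 252, 284 and 249.5 RPKM in old, and an RNA on the other strand shares 114 of its exon bases.

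Psma1 was the exception in size. It read 30.2, 23.9 and 22.9 RPKM in young and 26.4, 25.1 and 26.7 RPKM in old. Its order of libraries was that of the other alpha genes, but the distance between old and the lower young libraries was the smallest of the 7. Its adjusted p of limma was 0.987 with all libraries and 0.0655 without young replicate 1, the single core gene that did not pass there. Psma2, Psma5 and Psma6 had log2 fold changes of 0.20, 0.18 and 0.21 with all libraries and of 0.41, 0.39 and 0.37 without young replicate 1, where limma's adjusted p-values were 0.00222, 0.00419 and 0.00548. Summed over the ring, RPKM was 904, 517 and 556 in young and 702, 732 and 680.1 in old.

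The non-catalytic beta subunits Psmb1 to Psmb4 complete the inner rings. Psmb4, on chromosome 3 from 94884093 to 94886961, had the third widest spread between young libraries, at 71.7, 37.2 and 37.2 RPKM, and read 51.1, 50.8 and 47.2 RPKM in old. The lower pair of young libraries were nearly equal and every old library lay between them and young replicate 1. Its log2 fold change was 0.10 ± 0.26 (limma adjusted p = 0.978), and 0.41 ± 0.05 (adjusted p = 0.00432) without young replicate 1. Psmb2 was the only core gene in which young replicate 1 did not lie above all others: it read 15.2, 11.7 and 11.2 RPKM in young and 14.3, 15.3 and 15.1 RPKM in old. Young replicate 1 was thus inside the old range. Psmb1 had a log2 fold change of 0.0017 with all libraries, below 0 under 3 other scalings between libraries, and 0.21 ± 0.05 (limma adjusted p = 0.0248) without young replicate 1. For Psmb3 these values were 0.19 and 0.34 ± 0.06 (adjusted p = 0.00827).

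The 3 catalytic subunits gave the same order of libraries. Psmb5, the chymotrypsin-like site and the main target of proteasome inhibitors, lies on chromosome 14 from 54614120 to 54617995. It read 43.9, 30.8 and 31.3 RPKM in young, a mean of 35.4 ± 7.43 (SD, n = 3), and 36.9, 38.2 and 36.3 RPKM in old, a mean of 37.1 ± 1.006 (SD, n = 3). Old and young overlapped only through young replicate 1. Psmb6, the caspase-like site on chromosome 11 from 70525367 to 70527858, read 68.8, 34.4 and 37.2 RPKM in young (46.8 ± 19.1, SD, n = 3) and 45.5, 44.8 and 42.0 RPKM in old (44.1 ± 1.85, SD, n = 3). Psmb7, the trypsin-like site on chromosome 2 from 38588036 to 38644087, read 51.6, 31.0 and 32.8 RPKM in young (38.5 ± 11.4, SD, n = 3) and 40.5, 39.1 and 39.7 RPKM in old (39.8 ± 0.687, SD, n = 3). In each the 3 old values were close together and the young values wide. The log2 fold changes were 0.09 ± 0.15, -0.02 ± 0.26 and 0.08 ± 0.20, with limma's adjusted p = 0.965, 0.998 and 0.975. Without young replicate 1 they were 0.25 ± 0.05, 0.29 ± 0.06 and 0.31 ± 0.05, with adjusted p = 0.0129, 0.0151 and 0.00735. Exons of Psmb5 share 109 bases with Mir686 on the same strand, which counting by strand would not separate. Those of Psmb7 share 405 with Nek6 on the other strand, and whether counting used strand is not given in the sources used here.

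**Figure D3:**
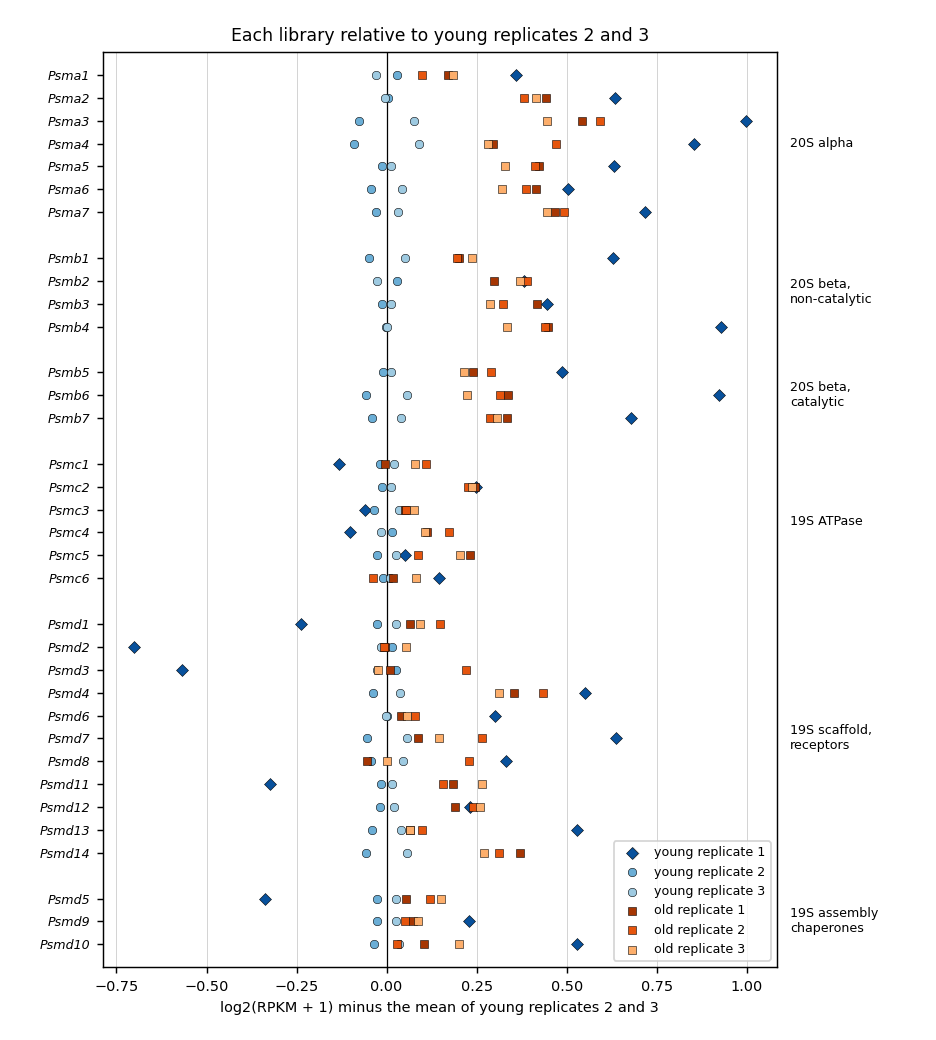
Each subunit gene's RPKM relative to the mean of young replicates 2 and 3, as log2, with 1 point per library and genes grouped by role. Core genes other than Psmb2 show young replicate 1 at the top and the old libraries between, while in cap genes young replicate 1 lies on either side of 0.

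The ATPase ring of the cap was nearly even across libraries. Summed over Psmc1 to Psmc6, RPKM was 777.5, 785 and 809 in young and 841, 847 and 861 in old, so all old sums lay above all young sums. Young replicate 1 was at a median of 0.997 times the mean of the other young libraries, but the genes were split. It was above all other libraries in 2, Psmc2 (1.19 times that mean) and Psmc6 (1.11 times). It was below all of them in 3, Psmc1, Psmc3 and Psmc4. Psmc4 read 53.4, 58.0 and 56.8 RPKM in young and 62.1, 64.8 and 61.8 RPKM in old. Each old library was above each young one, and limma gave 0.16 ± 0.08 with adjusted p = 0.577 (0.0779 without young replicate 1). Psmc5 read 154, 146 and 152 RPKM in young and 175, 158 and 172 RPKM in old, also without overlap (0.16, adjusted p = 0.664, and 0.0664 without young replicate 1). Psmc3 read 205, 209 and 219 RPKM in young and 222, 222 and 226 RPKM in old, a gap smaller than the young range. Psmc1, Psmc2 and Psmc6 overlapped, with log2 fold changes of 0.11, 0.15 and -0.03. Without young replicate 1, 1 of the 6 passed, Psmc2, at 0.24 ± 0.05 and adjusted p = 0.0125.

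Among the 11 scaffold, lid and ubiquitin receptor subunits, Psmd11, a lid subunit that joins the cap to the core, had the largest estimate of all 34 genes. On chromosome 11 from 80428615 to 80473248, it read 7.41, 9.42 and 9.63 RPKM in young (8.82 ± 1.23, SD, n = 3) and 10.96, 10.7 and 11.65 RPKM in old (11.1 ± 0.484, SD, n = 3). All old libraries were above all young, and young replicate 1 was the lowest. Limma gave 0.31 ± 0.12 on the log2 scale, with unadjusted p = 0.0377 and adjusted p = 0.397, and 0.20 ± 0.06 with adjusted p = 0.0366 without young replicate 1. Psmd3, a lid subunit, and Psmd2, a large scaffold of the base, had the next estimates. Psmd2 read 63.4, 105 and 103 RPKM in young and 103, 103 and 108 RPKM in old, so young replicate 1 alone was low and the other young libraries lay at the old level. Its log2 fold change was 0.25 ± 0.20 (limma adjusted p = 0.834) and 0.01 ± 0.05 (adjusted p = 0.854) without young replicate 1. Psmd3 read 21.4, 32.9 and 31.7 RPKM in young and 32.5, 37.7 and 31.7 RPKM in old, again with young replicate 1 alone low. The estimate of 0.26 ± 0.18 became 0.07 (adjusted p = 0.537) without it. Psmd1, the other large scaffold, read 43.7, 50.7 and 52.6 RPKM in young and 54.0, 57.3 and 55.1 RPKM in old. The groups did not overlap, and limma's adjusted p was 0.654 (0.163 without young replicate 1). Exons of Psmd1 share 301 bases with Gm21972 on the same strand.

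Some cap subunits had the order of libraries seen in the core. Psmd4, the ubiquitin receptor, read 130, 86.2 and 90.9 RPKM in young and 113, 119.9 and 110.1 RPKM in old. Psmd14, the deubiquitinase that removes the chain, read 50.2, 29.6 and 32.1 RPKM in young and 40.1, 38.5 and 37.4 RPKM in old. In both, young replicate 1 was highest and the old libraries stood above the remaining young ones. Without young replicate 1 limma gave 0.37 ± 0.06 (adjusted p = 0.00656) for Psmd4, 0.32 ± 0.06 (adjusted p = 0.0109) for Psmd14 and 0.23 ± 0.05 (adjusted p = 0.0157) for the lid subunit Psmd12. With all libraries the estimates of these 3 were 0.18, 0.09 and 0.15. Psmd7, the partner of Psmd14, read 488, 302 and 326 RPKM in young and 333, 377 and 347 RPKM in old and did not pass in either fit (adjusted p = 0.988 and 0.114).

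The lowest estimates were those of Psmd13, Psmd10 and Psmd8. Psmd13, a lid subunit whose exons share 342 bases with Sirt3 on the other strand, read 28.6, 18.96 and 20.1 RPKM in young and 20.5, 21.0 and 20.5 RPKM in old. Apart from young replicate 1 the 5 libraries lay within 18.96 to 21.0 RPKM. Limma gave -0.10 ± 0.16 (adjusted p = 0.962) and 0.08 (adjusted p = 0.274) without young replicate 1. Psmd8, a lid subunit, read 31.4, 24.0 and 25.6 RPKM in young and 23.8, 29.2 and 24.8 RPKM in old, and the groups overlapped with or without young replicate 1. Psmd6 had 77.2 RPKM in young replicate 1 and 62.4 to 66.1 RPKM in the others. The 3 assembly chaperones, which escort the cap's base and leave it, gave no call in either fit. Psmd10 (gankyrin) read 34.5, 23.0 and 24.2 RPKM in young and 25.4, 24.1 and 27.3 RPKM in old, Psmd9 lay between 4.72 and 5.82 RPKM, and Psmd5 read 5.08, 6.55 and 6.83 RPKM in young and 6.97, 7.36 and 7.54 RPKM in old. Psmd5 alone of the 3 had no overlap between groups, with limma's adjusted p = 0.639, and 0.187 without young replicate 1. Psmd9 shares 1849 exon bases, 25.5% of its length, with Gm26745.

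Set side by side, core and cap transcripts kept different proportions in the libraries. Summed RPKM of the core was 1295, 751 and 800.1 in young and 999, 1027 and 969 in old, and that of the cap 1842, 1605 and 1665 in young and 1750.0, 1823 and 1791 in old. The ratio of core to cap was therefore 0.703, 0.468 and 0.480 in young and 0.571, 0.564 and 0.541 in old. The old libraries were alike and stood between young replicate 1 and the other 2 young libraries. In 20 of the 34 genes (58.8%) the 3 old values lay in that middle position, 13 of the core and 7 of the cap, against 10.7% of all genes. All 3 old libraries lay above young replicates 2 and 3 in 28 of the 34, including all 14 core genes, against 23.7% of all genes. The exceptions were Psmc1, Psmc6, Psmd2, Psmd3, Psmd8 and Psmd10. Within the old group the median SD of log2 values was 0.05 for core and for cap genes, against 0.07 for all tested genes. Within the young group it was 0.37 and 0.18, against 0.23, so a wider spread in young was shared by the whole table.

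Gene length moved with the deviation of young replicate 1, and its part in that deviation was not tested. Over the 34 genes the log2 length and that deviation had a Pearson r of -0.43 and a Spearman rho of -0.32, across genes that share the same libraries. Within the core the sign was the opposite (r 0.38, rho 0.42, 14 genes), and within the cap it was negative (r -0.40, rho -0.31, 20 genes). In the second of 5 equal classes of tested genes by length (1345 to 2736 bases), whose median deviation was 0.11, the 4 core genes had a median of 0.89 and the 9 cap genes 0.14. In the third class (2737 to 4180 bases; -0.12) the 4 core genes had 0.70 and the 5 cap genes 0.53. The old libraries relative to young replicates 2 and 3 gave 0.35 and 0.11 in the second class and 0.39 and 0.08 in the third. Over all tested genes that median of old was 0.01 and -0.04 in these classes. It went from 0.06 in the shortest class to -0.16 in the longest, so old moved with length in the same direction as young replicate 1. Over the 34 genes the deviations of young replicate 1 and of old, which share their base, had a Pearson r of 0.71. The part of length in the difference of old was not tested. After the length trend was removed from each library, 0 of 34 were called with all 6 libraries, and 22 were called higher without young replicate 1, all 14 core genes among them, against 15.9% of all genes.

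**Figure D4:**
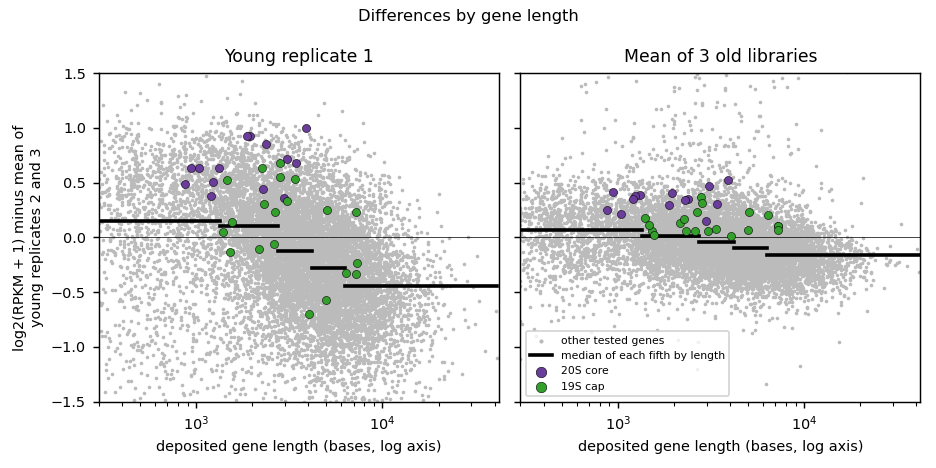
Log2 deviation from young replicates 2 and 3 (vertical) against gene length in bases (log axis), for young replicate 1 (left) and the mean of the old libraries (right). Core and cap genes are coloured and other tested genes grey. Of the other tested genes, 881 lie outside the axes in either panel. Every core gene lies above the median of its length class (black bars) in both panels.

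The immunoproteasome subunits that replace the catalytic ones were set against them within each library, so that depth and any single scaling factor of a library cancel. Psmb8 was 23.1, 17.9 and 17.9% of Psmb5 in young and 45.1, 47.2 and 45.3% in old, means of 19.6 ± 2.99 and 45.9 ± 1.15% (SD, n = 3 each). Psmb9 was 1.20, 2.07 and 1.68% of Psmb6 in young and 3.59, 3.84 and 3.45% in old. Psmb10 was 11.2, 13.6 and 10.5% of Psmb7 in young and 24.5, 25.0 and 25.0% in old. In all 3 pairs every old library was above every young one, young replicate 1 included, and means of the log2 ratio differed by 1.24, 1.17 and 1.08. The two-sided exact permutation test gave p = 0.1 for each pair (adjusted 0.1 over the 3 pairs), the smallest p that 3 against 3 allows. The differences without young replicate 1 were 1.36, 0.96 and 1.05, each with exact p = 0.2, the smallest for 3 against 2. Of the replacing subunits, Psmb8 had a log2 fold change of 1.20 ± 0.22 (limma adjusted p = 0.0698), Psmb9 0.60 ± 0.08 (adjusted p = 0.0243) and Psmb10 1.008 ± 0.16 (adjusted p = 0.0462), while the 3 catalytic subunits had values between -0.02 and 0.09. Limma called all 3 replacing subunits higher without young replicate 1, at 1.46 (adjusted p = 2.381e-05), 0.64 (0.00229) and 1.17 (0.000237). Psmb9 itself stayed under 1 RPKM in every young library and entered the test through the old ones. Its call held in 6 of 15 alternative settings (adjusted p up to 0.177), that of Psmb10 in 5 of 16 (up to 0.258). Exons of Psmb9 (mean 1.16 RPKM) share 212 bases with Tap1 (6.46 RPKM) on the other strand. Those of Psmb8 (12.05 RPKM) share 186 with Gm20496 (20.3 RPKM), also on the other strand. The counting strand is not given, and the part of those genes' reads in these values was not tested. On the log2(RPKM + 1) scale the differences of the 3 pairs were 1.12, 0.51 and 0.92 after quantile normalization. After removal of the length trend they were 1.13, 0.60 and 0.93. A shift between libraries that depends on gene length does not cancel in a ratio of genes of unlike length, such as Psmb8 (2736 bases) and Psmb5 (871). Levels compared between genes rest on the deposited gene lengths, and the ratio between groups does not.

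**Figure D5:**
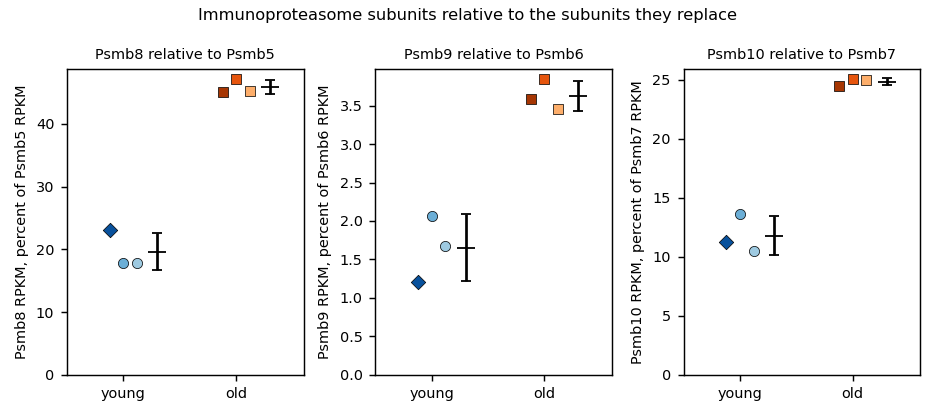
RPKM of each immunoproteasome subunit as a percent of the catalytic subunit it replaces, by library (Psmb8 of Psmb5, Psmb9 of Psmb6, Psmb10 of Psmb7). Points are libraries and bars are group means with SD (n = 3); old libraries lie above young ones in each pair, at 45.9% against 19.6% for Psmb8.

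Partners of the proteasome were read from lists of related genes, whose counts stand against 1.57% of all genes called with all libraries and, without young replicate 1, 13.2% higher and 19.4% lower. Of 6 tested activators and inhibitors of the core other than the cap, 0 were called with all libraries and 2 without young replicate 1, the interferon-induced activator subunits Psme1 and Psme2. Psme1 read 98.2, 68.5 and 72.6 RPKM in young and 123, 134 and 126 RPKM in old, and Psme2 59.4, 33.2 and 34.4 RPKM in young and 69.2, 72.3 and 67.7 RPKM in old. Both had old above young in every library, with limma's adjusted p = 0.115 and 0.262. Of 5 core assembly chaperones 0 were called, and 2 without young replicate 1, Pomp and Psmg4. Pomp, which is needed to mature the core, read 31.1, 16.8 and 17.6 RPKM in young and 23.3, 24.9 and 22.3 RPKM in old, the order of libraries seen in the core subunits. Of 13 tested proteins associated with the cap, 0 were called. Without young replicate 1, Adrm1, a ubiquitin receptor of the cap, and Shfm1 were among those called higher, and Ddi2 was called lower. The deubiquitinase Usp14 had a log2 fold change of 0.02, or -0.0015 after quantile normalization.

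The list of transcriptional control was drawn up by name around factors that act on proteasome genes. Whether each of its genes, Akirin2 among them, acts on proteasome genes was not tested. Of 13 tested, 1 was called with all libraries, the small Maf protein Maff, a dimer partner of Nfe2l1 and Nfe2l2, at 4.98, 3.15 and 3.04 RPKM in young and 9.03, 9.69 and 10.1 RPKM in old (1.19 ± 0.17, limma adjusted p = 0.0273). Of the 13, without young replicate 1, 3 were higher (Maff, Akirin2 and Nfe2l2) and 2 lower (Nfya and Ddi2), against 13.2% and 19.4% of all genes. The call of Maff held in 7 of 16 alternative settings (adjusted p up to 0.186). Nfe2l1 itself read 68.3, 107 and 95.4 RPKM in young and 96.2, 95.8 and 98.9 RPKM in old, with young replicate 1 low and the rest level. Its fold change was 0.13 (adjusted p = 0.948) with all libraries, and -0.06 without young replicate 1. Nfe2l2 read 13.6, 14.2 and 12.9 RPKM in young and 18.1, 17.01 and 19.4 RPKM in old, with no overlap, adjusted p = 0.132 and, without young replicate 1, 0.0105. Its young replicate 1 was level with the other young libraries, unlike the core subunits. Of 8 tested genes of ubiquitin and its activation 0 were called, against 1.57% of all genes, and 4 were higher without young replicate 1, against 13.2%.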

How the data were processed

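RNA sequencing libraries of 3 young and 3 old samples were compared. The authors deposited RPKM for 29587 gene rows with exon positions and gene lengths. Per the submitters' processing notes, fastp, STAR, HTSeq and edgeR were used with mm10; versions, parameters, annotation and counting strand are unknown: not given in the sources used here. Deposited RPKM times gene length came out as whole reads in 100.0% of values within 0.01, and among genes with 1 to 5 reads 77.5 to 79.3% had an even number, so reads are not independent molecules. A floor of 3 reads in 1 kilobase equals 0.0355 to 0.0462 RPKM and covers counting error only.

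Old and young were compared with limma 3.58.1 in R 4.3.3 (group as the only term, variance trend) on log2(RPKM + 1), for the 12015 genes that reached 1 RPKM in 3 or more libraries, and all 34 subunits passed. Tests were two-sided with Benjamini-Hochberg adjustment over all genes tested, and genes were called under 0.05. Fold changes on this scale understate low genes. The 3 subunit ratios had an exact permutation test. Scripts were tested on simulated data. The members, lists and tests were chosen with earlier results of these data known, and the lists support no direction independently. Some genes of these lists are not reported here by name. Per-library values are given for catalytic subunits, for the 3 members of largest rise, of largest fall and of widest spread in young, and for others that show the pattern, the latter chosen after their values were seen. Alternatives were other pseudocounts (0.1 and 0.5), filters, scalings, removal of the trend on gene length (loess, span 0.5), voom on the recovered reads, library weights, a replicate block and leaving out each library, and, added after seeing the data, 3 of them combined with leaving out young replicate 1.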

Additional observations from a re-analysis of the deposited data

How the results depend on the processing

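Under the pseudocounts, filters, 3 scalings, voom and replicate block, 0 of 34 subunit genes were called, as with all 6 libraries, and 0 were called lower under any alternative. The subunits called higher numbered 21 with library weights, which gave young replicate 1 a weight of 0.0425, and ranged from 0 to 18 over the libraries left out, with 18 only when young replicate 1 was left out. With that library left out they numbered 22 after removal of the length trend, 21 with median-ratio scaling and 16 with quantile normalization, which lost Psmb1 and Psmd12 of the 18. These 3 combinations were chosen after seeing the data. Genes called higher over the whole table were 177, and 99 with a mean RPKM of at least 5, 163 with voom and 2119 with library weights; those called lower were 12, then 38 after removal of the length trend and 2957 with library weights. Leaving out single libraries gave 80 to 1589 higher and 0 to 2329 lower. With young replicate 1 out, 40.6% of calls were higher, and under the 3 combinations 55.3% (1907 higher, 1543 lower), 55.4% (1976 and 1590) and 45.8% (1604 and 1900). Deviations of same-numbered libraries from their group means correlated at -0.03, -0.44 and 0.33, and not every sample correlated best with its own number. With 3 libraries a group these correlations depend on each other, so they cannot decide whether samples were paired. A replicate block gave 82 genes higher and 0 lower.

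Estimates of sign opposite to those with all libraries were few outside the left-out libraries. For Psmb1 they were -0.005 after removal of the length trend, -0.0056 with median-ratio scaling and -0.0306 with quantile normalization, which also gave -0.0063 for Psmf1 and -0.0015 for Usp14. With library weights they were 0.26 for Psmb6, 0.0183 for Psmc6, 0.0492 for Psmd6, 0.0866 for Psmd7, 0.0553 for Psmd9, 0.0887 for Psmd10, 0.0398 for Psmd13, -0.0049 for Nfe2l1, -0.15 for Psme3 and 0.0726 for Psmg2. Over the libraries left out, log2 estimates ranged from -0.0423 to 0.15 for Psma1, -0.0107 to 0.53 for Psma3, -0.12 to 0.35 for Psma4, -0.13 to 0.21 for Psmb1, -0.0573 to 0.41 for Psmb4, -0.0002 to 0.25 for Psmb5, -0.20 to 0.29 for Psmb6, -0.0499 to 0.31 for Psmb7. They ranged from -0.0576 to 0.0209 for Psmc6, -0.0926 to 0.0591 for Psmd6, -0.18 to 0.17 for Psmd7, -0.14 to 0.0583 for Psmd8, -0.056 to 0.0712 for Psmd9, -0.17 to 0.11 for Psmd10, -0.21 to 0.0771 for Psmd13, -0.0538 to 0.32 for Psmd14. Those of the remaining genes that changed sign ranged from -0.0157 to 0.0667 for Usp14, -0.0621 to 0.26 for Nfe2l1, -0.17 to 0.18 for Psme3, -0.0091 to 0.0512 for Psmf1, -0.27 to 0.0164 for Psmg2 and -0.16 to 0.0564 for Psmg1. Of the 34 subunit estimates, 26 were above 0 with all libraries, and 18 without young replicate 2. The fewest recovered reads behind a subunit value were 1092. With 3 libraries a group, 1 of which stood apart, differences of the size seen in the core were within the spread.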
